A study of Homo sapiens with 19 samples.

Results

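The first 670 positions of 18S ribosomal RNA (rRNA) were taken from a RiboMethSeq data set as every row of 18S numbered 1 to 670, together with every ribose methylation site listed in that range. This gave 670 of 7000 rRNA positions and 23 of 120 listed sites, all measured in 19 libraries. Of the other listed sites 24 lie further along 18S, 71 in 28S and 2 in 5.8S rRNA. The RNA was from Kasumi-1 cells, a leukaemia line established from acute myeloid disease and grown with 20% serum. There were 7 knockdown (KD) groups of 2 libraries each, all of them, controls included, treated with doxycycline at 100 ng/ml. Control KD and FBL KD were each made without a vector and with an empty one, and FBL KD was also combined with re-expression of wild-type FBL or of the mutants titled FBLTri and FBLQua. A knockout arm added 5 libraries: a control knockout clone, the SNORD127 knockout clones C1 and C34, and 2 derivatives of C1 that carry an empty vector or SNORD127. The control and the clone with SNORD127 put back are each a single clone, and the knockout is represented by 2.

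Fibrillarin (FBL) is the methyltransferase of box C/D small nucleolar ribonucleoproteins. In these particles a guide RNA (SNORD) pairs with rRNA and selects the nucleotide whose ribose receives a methyl group, and NOP56 and NOP58 are core proteins beside FBL. Most human guides are cut from introns of host genes, many of which encode ribosomal proteins. The start of 18S rRNA makes up the 5′ domain of the small ribosomal subunit, and its sites bear the base and the position in their names, so that 18S-Am159 is a 2′-O-methylated adenosine. RiboMethSeq breaks RNA in alkali, which spares the bond next to a methylated ribose, and reads methylation as a gap in the fragment ends. The authors' score C compares the end count next to a site with the counts on either side: it is near 1 where nearly all molecules are protected and 0 where the site is cut like its surroundings.

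The 23 sites fall into groups by guide. According to the deposited annotation the SNORD45 copies, hosted by RABGGTB, guide 18S-Am159 (SNORD45A and SNORD45C), 18S-Um172 (SNORD45A and SNORD45B) and 18S-Cm174 (SNORD45C). SNORD42 guides 18S-Um116 and SNORD4 guides 18S-Um121, and all of these copies are hosted by RPL23A. Guides hosted by the snoRNP genes NOP56 and NOP58 serve 18S-Am99 (SNORD57), 18S-Gm509 (SNORD11), 18S-Am512 (SNORD70) and 18S-Cm517 (SNORD56). Other ribosomal protein genes host the guides of 18S-Um428 (SNORD68 in RPL13), 18S-Gm436 (SNORD100 in RPS12), 18S-Cm462 (SNORD14 in RPS13), 18S-Am468 (SNORD83A in RPL3), 18S-Am484 (SNORD16 in RPL4), 18S-Gm644 (SNORD54 in RPS20) and 18S-Am668 (SNORD36 in RPL7A). The non-coding host genes SNHG1, GAS5, SNHG26 and SNHG29 carry SNORD27 for 18S-Am27, SNORD44 for 18S-Am166, SNORD93 for 18S-Am576 and SNORD65 for 18S-Um627. PRRC2B hosts SNORD62 for 18S-Am590, and SNORD103 and SNORD85 guide 18S-Gm601. Position 186 has only a predicted guide. Of the 23 sites 10 have another listed site within 6 nucleotides, inside the window from which the score is made: 18S-Um116 with 18S-Um121, 18S-Am166 and 18S-Cm174 with 18S-Um172, 18S-Cm462 with 18S-Am468, and 18S-Gm509 and 18S-Cm517 with 18S-Am512.

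Libraries held 5533150 to 18835537 end counts, of which 2.67% to 6.72% fell in the region. The 4 libraries of control KD and FBL KD with no re-expression were the shallowest there, with a median of 39.5 to 184 counts per position against 195 to 584.5 in the 15 others. At the 23 sites counting error alone gave 95% intervals whose half-width was 0.019 at the median and 0.15 at most. One library, replicate 2 of control KD with empty vector, had 20.8% of all its end counts in a spike at position 15 of 28S. The share there was 0.241% to 2.72% in the 18 others, so some of the results that rest on this library are also given without it. For the mutants, titles and column names disagree (Dual in the columns of FBLTri, Tri in those of FBLQua), and groups follow the titles. Columns of FBL KD carry shFBL1 and shFBL2 where there is no vector and shFBL4 where there is one, so the shFBL number and the background cannot be told apart. Nothing in the labels ties replicates to separate cultures, and p-values therefore reflect a spread between libraries that may be technical. Neither target, FBL or SNORD127, was itself measured.

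In control cells the region was close to fully methylated. In the control knockout clone 20 of the 23 sites scored 0.9 or more, and the 3 below were 18S-Cm462 (0.885), 18S-Cm174 (0.873) and position 186 (0.847). Averaged over the 23 sites, libraries of the knockout arm scored 0.950 ± 0.011 (SD, n = 5), control KD 0.971 and control KD with empty vector 0.926. The last is the mean of 0.945 in replicate 1 and 0.907 in replicate 2, the library with the spike, in which 18S-Cm174 scored 0. Sites differed in how far they moved across the 19 libraries. The steadiest was 18S-Cm517, at 0.977 to 1 with a median of 0.993, followed by 18S-Am576 at 0.945 to 1 and 18S-Um172 at 0.937 to 0.994. The widest spread was at 18S-Cm174, from 0 to 0.948, and then at 18S-Am159, from 0.650 to 0.996. Position 186 ranged from 0.607 to 0.874, so no library reached 0.9 there. The map of scores by library shows these columns against a mostly even field.

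**Figure D1:**
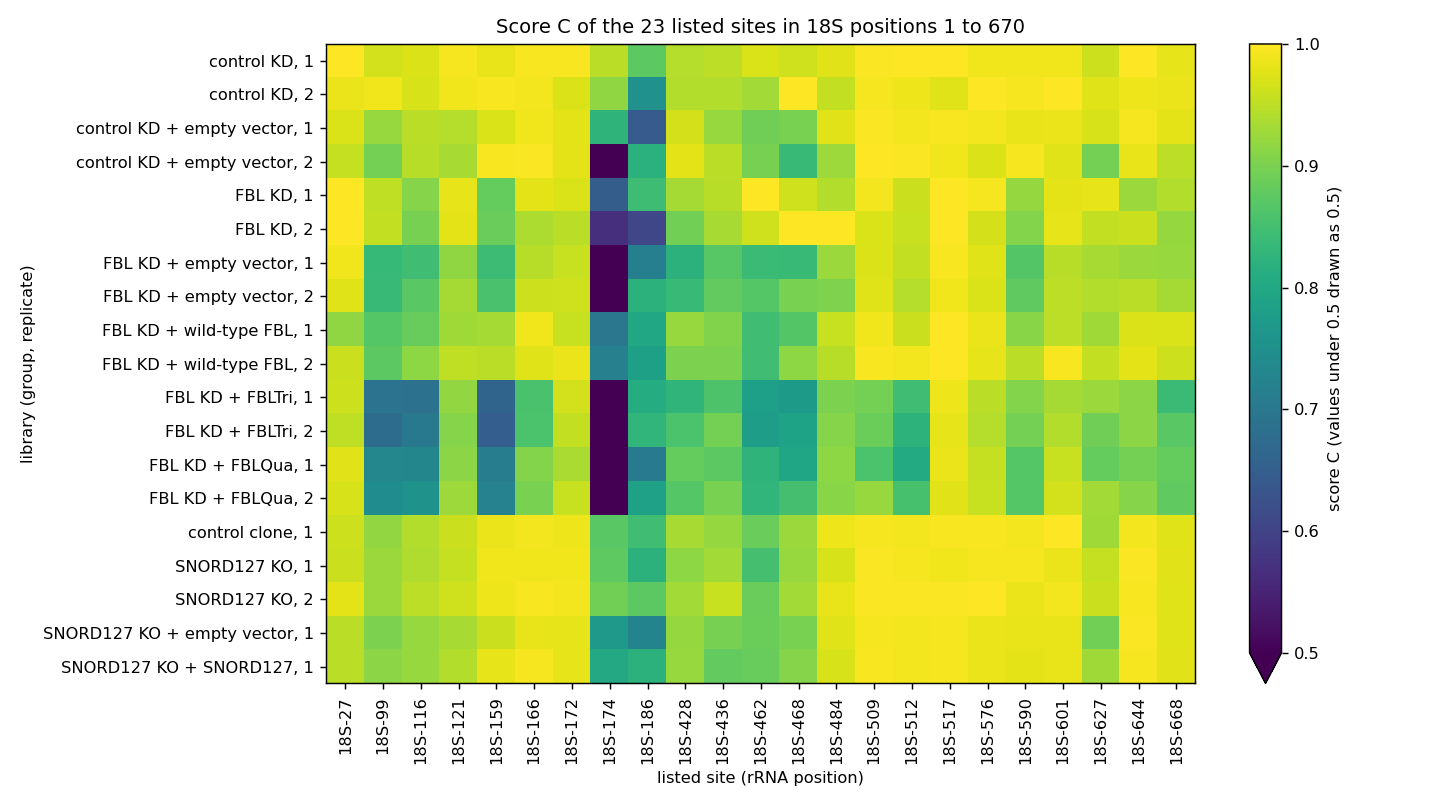
Score C (colour, no unit, values under 0.5 drawn as 0.5) of the 23 listed sites (columns, by rRNA position) in the 19 libraries (rows, by group and replicate). The dark columns are 18S-Cm174 and position 186; in the 4 FBLTri and FBLQua libraries 18S-Am99, 18S-Um116 and 18S-Am159 also darken, to between 0.650 and 0.756.

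FBL KD lowered score C at part of the region. Over both backgrounds (on each side 2 libraries with empty vector and 2 with no re-expression) 12 of the 23 sites fell and 0 rose, by limma at an adjusted p under 0.05. Over all 120 sites 71.7% fell and 1.67% rose. The median change was -0.025 over the 23 sites and -0.085 over all 120. Further along 18S 14 of 24 sites fell (median -0.054), and 59 of 71 did in 28S (median -0.153). Every library of FBL KD lay below every control library at 10 of the 23 sites, against 59.2% of all sites. The called changes ran from -0.022 to -0.121. These directions hold on the deposited scale: the median site of a library moved by -0.118, and with library medians made equal 0 sites of the region were lower and 20 higher, so relative to the median site the region lost less.

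The largest called loss was at 18S-Am159, a SNORD45 site. Its score was 0.984 and 0.996 in control KD, 0.972 and 0.996 in control KD with empty vector, 0.881 and 0.885 in FBL KD, and 0.842 and 0.856 in FBL KD with empty vector. All 4 FBL KD libraries were below all 4 controls, and the change was -0.121 (SE 0.008, adjusted p = 6.81e-07 by limma). The counts behind it were 8, 1, 27 and 3 fragment ends at the position read in the controls and 45, 25, 148 and 128 in FBL KD, beside flanking means of 244.9 to 955.7 and 217 to 936.3. 18S-Um172, which shares SNORD45A, changed by -0.022 (adjusted p = 0.0392 by limma), a call lost under 8 of 17 alternatives and turned in sign under 1 more.

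18S-Am590, guided by the SNORD62 copies, scored 0.983 to 0.994 in the 4 controls. It scored 0.921 and 0.908 in FBL KD and 0.867 and 0.877 with empty vector. The groups did not overlap, and the change was -0.097 (SE 0.008, adjusted p = 4.39e-06 by limma). 18S-Um116 scored 0.974 and 0.970 in control KD and 0.947 and 0.946 with empty vector, against 0.908 and 0.897 in FBL KD and 0.847 and 0.872 in FBL KD with empty vector. It fell by 0.078 (SE 0.010, adjusted p = 8e-05 by limma), again with no overlap. Its neighbour 18S-Um121, whose guides come from the same host gene, was not called.

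18S-Gm644 (SNORD54) scored 1, 0.988, 0.993 and 0.983 in the controls and 0.924, 0.961, 0.925 and 0.948 in FBL KD, a fall of 0.051 (SE 0.008, adjusted p = 0.000466 by limma) without overlap. 18S-Am99 (SNORD57) fell by 0.049 (SE 0.008, adjusted p = 0.000624), but its groups overlapped: 0.966, 0.990, 0.924 and 0.896 in the controls against 0.952, 0.955, 0.835 and 0.837. Within each background the FBL KD libraries were the lower ones. The remaining calls were 18S-Um428 (-0.088), 18S-Am668 (-0.044), 18S-Am512 (-0.040), 18S-Am166 (-0.037), 18S-Gm436 (-0.033) and 18S-Gm601 (-0.023). The last was lost under 9 of 17 alternatives, among them the omission of any 1 of the 8 libraries. Its sign turned under 1 more.

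The 11 other sites did not pass the test. The intervals of their changes differed in width: at 18S-Am27 the change was 0.013 (95% interval -0.008 to 0.033), at 18S-Gm509 -0.019 (-0.047 to 0.008), at 18S-Am468 0.000 (-0.051 to 0.051) and at position 186 -0.025 (-0.162 to 0.112). The changes at 18S-Um121 (-0.012), 18S-Am484 (-0.015), 18S-Cm517 (0.006), 18S-Am576 (-0.012) and 18S-Um627 (0.003) were small, and the controls and FBL KD overlapped at each of these 5 sites. For the lists that follow, the share called lower was 12 of 23 in the region and 71.7% over all sites. By base, 6 of the 10 adenosines fell (median -0.038), 3 of the 4 guanosines (-0.028), 3 of the 5 uridines (-0.022) and 0 of the 3 cytidines (-0.005). The cytidine 18S-Cm174 had the largest estimate of the region, -0.174, without a call. Of the 9 sites with more than 1 guide 6 fell, and of the 13 with a single guide 6 did. Among sites with another listed site within 6 nucleotides 4 of 10 fell (median -0.020), and among the rest 8 of 13 did (median -0.033). All 12 calls were among the 20 sites at 0.9 or more in the control clone. Guides hosted by ribosomal protein genes served 9 sites, of which 5 fell, and those hosted by NOP56 or NOP58 served 4, of which 2 fell.

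**Figure D2:**
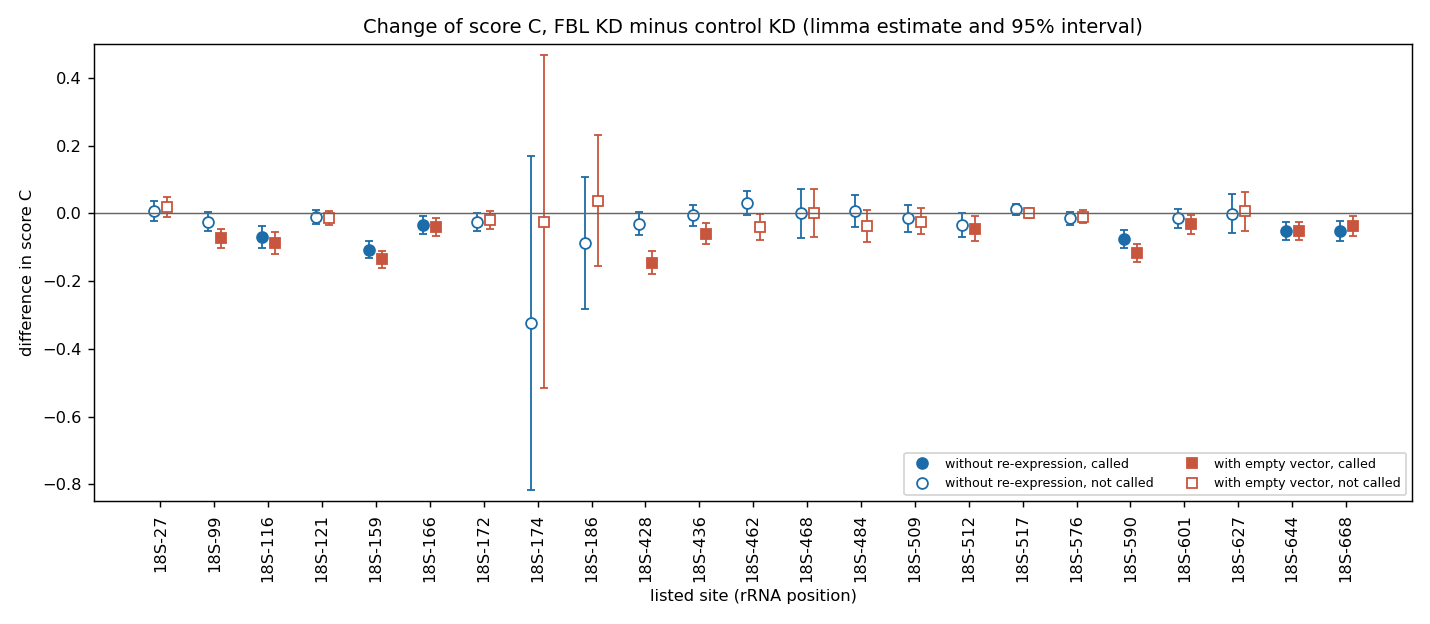
Difference in score C (vertical axis, no unit), FBL KD minus control KD, at the 23 listed sites (horizontal axis, rRNA position), without re-expression (circles) and with empty vector (squares). Symbols are limma estimates with 95% intervals, filled where called; the widest intervals are at 18S-Cm174 and the lowest filled symbols are -0.145 at 18S-Um428 and -0.135 at 18S-Am159, both with empty vector.

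18S-Cm174 had the largest estimate and no call. Its score was 0.948 and 0.916 in control KD and 0.825 and 0 in control KD with empty vector, against 0.648 and 0.567 in FBL KD and 0.348 and 0.429 in FBL KD with empty vector. All controls but one, replicate 2 with the spike in 28S, lay above all FBL KD libraries. The change was -0.174 (SE 0.152, adjusted p = 0.313 by limma). Without that library it was -0.380 (adjusted p = 0.00106) over both backgrounds and -0.436 (adjusted p = 0.00659) with empty vector, where it was -0.024 with all libraries. Without replicate 1 of the same group in its place, the change with empty vector was 0.388 (adjusted p = 0.0103), so 1 library sets both size and sign. In replicate 2 position 175, where 18S-Cm174 is read, held 628 counts and position 170, one of its flanks, held 1761. In replicate 1 these positions held 114 and 660 counts. The profile around 18S-Cm174 shows this library apart from the other 3 controls.

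**Figure D3:**
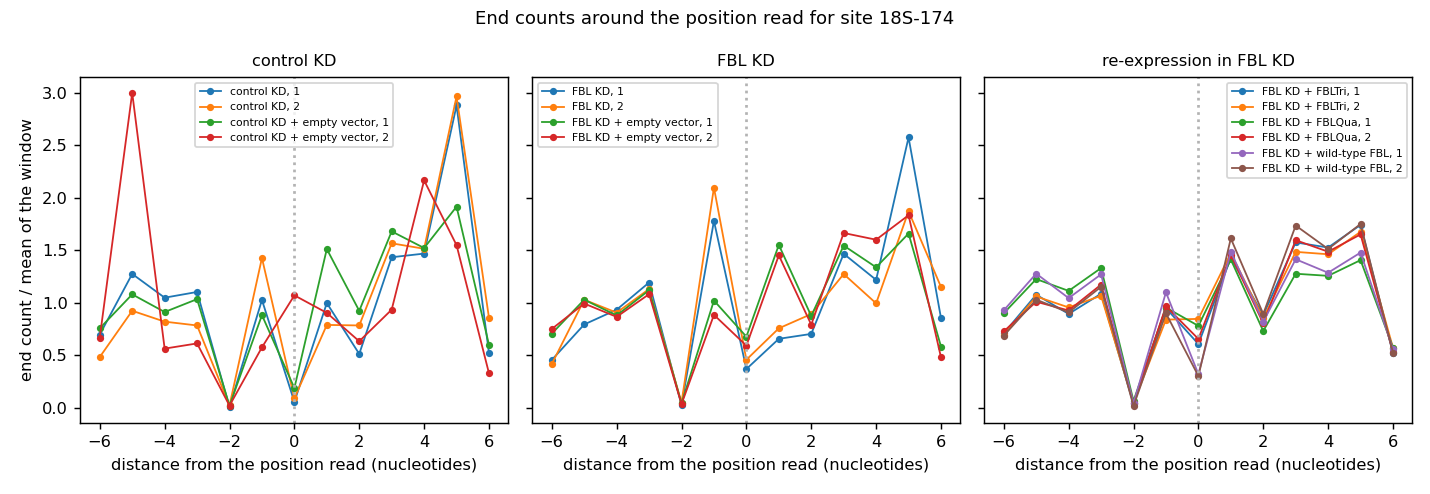
End counts divided by their mean over a window of 13 positions (vertical axis), by distance in nucleotides from the position read for 18S-Cm174 (horizontal axis), in 4 control KD libraries, 4 FBL KD libraries and 6 FBL KD libraries with re-expression. At distance 0 the library with a raised value among the controls is replicate 2 with empty vector, the library that scored 0; the FBL KD and mutant libraries are raised there as well.

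End counts gave a view that does not use the flanks of each site. Among 669 positions of the region that could be tested, 7 had more fragment ends in FBL KD and 0 fewer, against 1.06% higher over all 6538 positions tested (edgeR quasi-likelihood test, adjusted p under 0.05). Each of the 7 was the position after a listed site, of which 22 in the region could be tested, while 68 of 118 such positions were called over all rRNA. The log2 fold change was 3.46 after 18S-Am159 (11-fold, adjusted p = 0.000121), 3.41 after 18S-Gm644, 3.06 after 18S-Am590, 2.73 after 18S-Am166, 1.94 after 18S-Um116, 1.60 after 18S-Um428 and 1.20 after 18S-Am99. These 7 sites are among the 12 called by score. Of the 647 positions that do not follow a listed site 0 were called by edgeR with all libraries, and 58 had an unadjusted p under 0.05. This confinement to listed sites did not hold when single control libraries were left out. The counts given for that below exceed the number of positions that follow a listed site. DESeq2 called 10 positions of the region, all higher. The count depended on single control libraries, for without replicate 2 of control KD it was 68 (12 lower, 56 higher) and without replicate 1 of control KD with empty vector 47 (29 lower, 18 higher).

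The 2 backgrounds of the knockdown have no library in common, but both were tested in 1 fit with a variance shared over the 14 KD libraries. Cells without re-expression had 6 of the 23 sites lower and 0 higher, against 59.2% lower and 1.67% higher among all sites (limma). Cells with empty vector had 11 lower and 0 higher, against 67.5% and 0.833%. All 6 of the first, 18S-Um116, 18S-Am159, 18S-Am166, 18S-Am590, 18S-Gm644 and 18S-Am668, were among the 11, which is 100% of the one list and 54.5% of the other. The same overlap over all sites was not computed. 18S-Am166 was lost under 4 of 14 alternatives without re-expression and 2 of 13 with empty vector. 18S-Am668 was lost under 4 of 13 with empty vector, and 18S-Gm644 under 1 of 14 without re-expression. Equal library medians turned the sign of these calls as well, which the counts just given leave out. The calls at 18S-Um116, 18S-Am159 and 18S-Am590 failed only under equal library medians. With library medians made equal both backgrounds had 18 sites higher and 0 lower. Without replicate 1 of FBL KD with empty vector the second count was 7.

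The effect itself differed between the backgrounds at 2 sites, both more negative with empty vector, against 25% of all sites (limma). At 18S-Um428, the SNORD68 site, control KD scored 0.944 and 0.942 and FBL KD 0.932 and 0.893. With empty vector the control scored 0.968 and 0.980 and FBL KD 0.820 and 0.837. The change was thus -0.030 (adjusted p = 0.122) without re-expression and -0.145 (adjusted p = 2.66e-05) with empty vector, and the difference of -0.115 (SE 0.022, adjusted p = 0.00537 by limma) was called under each of 17 alternatives. 18S-Cm462 had changes of 0.030 and -0.040, neither called, and a difference of -0.070 (adjusted p = 0.0461) that was lost under 10 of 17 alternatives. Between the controls themselves 18S-Am99 (-0.069, adjusted p = 0.0124) and 18S-Um121 (-0.052, adjusted p = 0.0124) were lower with the vector, 2 of 23 against 7.5% of all sites. Neither was called without the replicate 2 that stood apart, nor with library medians made equal.

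Re-expressed wild-type FBL raised 7 of the 23 sites over empty vector and lowered 1, against 57.5% and 0.833% of all sites (limma). The sites that rose were 18S-Am159 (0.091, adjusted p = 0.000102), 18S-Um428 (0.084, adjusted p = 0.00142), 18S-Am590 (0.058, adjusted p = 0.00221), 18S-Um116 (0.040), 18S-Gm644 (0.040), 18S-Am668 (0.038) and 18S-Am99 (0.035). Each of them had fallen with empty vector, and the FBL KD libraries with empty vector enter both comparisons. At 18S-Am159 the score with wild-type FBL was 0.933 and 0.948, above both empty-vector libraries (0.842 and 0.856) and below both control libraries (0.972 and 0.996). The rises at 18S-Am99, 18S-Um116, 18S-Gm644 and 18S-Am668 were lost without single libraries, and the counts were 3 higher without replicate 1 of the empty vector and 3 higher and 1 lower without replicate 2 of wild-type FBL. With library medians made equal, which had moved by 0.096, 19 sites were lower and 0 higher.

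The site that fell with wild-type FBL was 18S-Am27, guided by SNORD27. It scored 0.916 and 0.960 with wild-type FBL and 0.989 and 0.975 with empty vector. The change was -0.044 (SE 0.013, adjusted p = 0.0178 by limma). FBL KD without re-expression scored 1 in both libraries, with 0 fragment ends beside flanking means of only 72.37 and 24.43, and control KD with empty vector 0.972 and 0.956, so one wild-type library lay within the range of the controls and one below it. The call was lost without replicate 1 of wild-type FBL or of the empty vector.

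In the region 5 sites were lower with wild-type FBL than in control KD with empty vector, and 0 were higher, against 29.2% lower among all sites (limma). They were 18S-Um428 (-0.061, adjusted p = 0.0149), 18S-Am590 (-0.059, adjusted p = 0.00442), 18S-Um116 (-0.047, adjusted p = 0.0325), 18S-Am159 (-0.044, adjusted p = 0.0149) and 18S-Am99 (-0.038, adjusted p = 0.0408). Of 13 alternatives, the call at 18S-Am99 was lost under 7 and turned in sign under 1 more. The call at 18S-Um116 was lost under 5, at 18S-Am159 under 4, at 18S-Um428 under 3 and at 18S-Am590 under 2. 18S-Gm644 at 0.977 and 18S-Am668 at 0.966 on average were not called against controls at 0.988 and 0.965. Without replicate 2 of the control, or without replicate 1 of wild-type FBL, 2 sites were called, and with library medians made equal 0 were lower and 6 higher. In the end counts 0 positions of the region were called for wild-type FBL against empty vector by edgeR, where 8 had an unadjusted p under 0.05, 0.138% of all positions were lower, and DESeq2 called 2 lower.

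**Figure D4:**
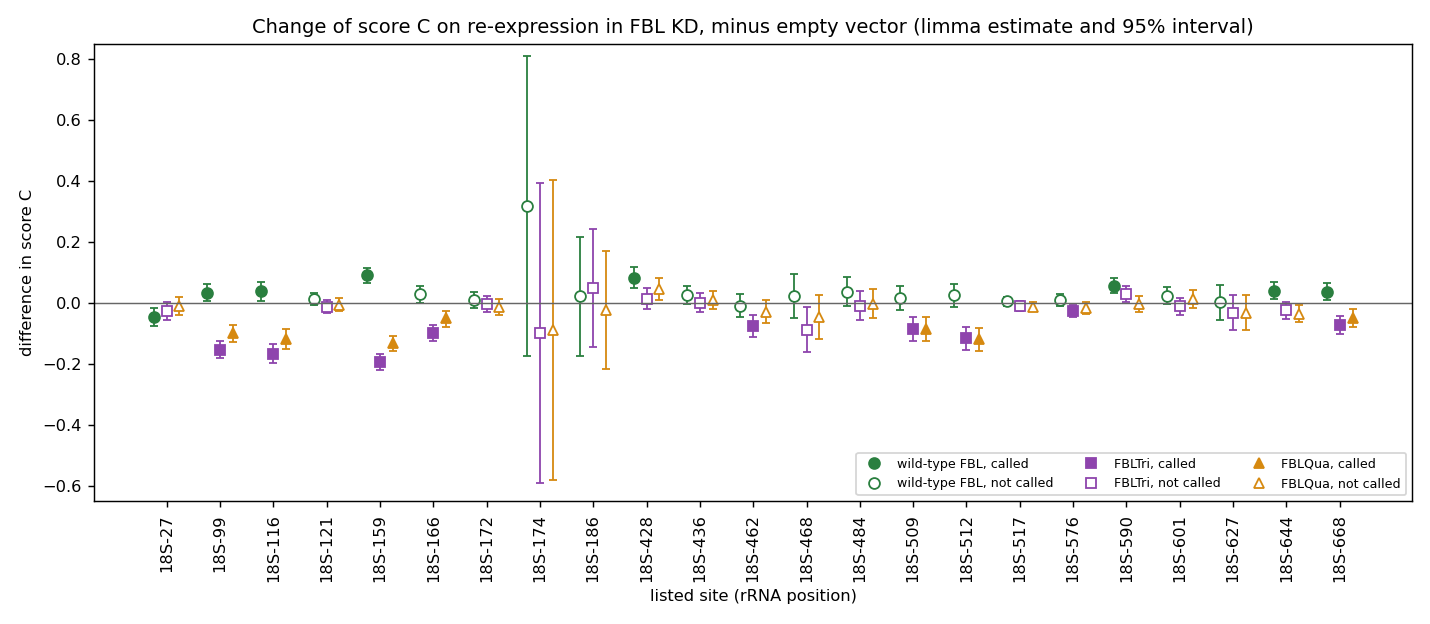
Difference in score C (vertical axis, no unit) from FBL KD with empty vector at the 23 listed sites (horizontal axis, rRNA position), for wild-type FBL (circles), FBLTri (squares) and FBLQua (triangles). Symbols are limma estimates with 95% intervals, filled where called; at 18S-Am99, 18S-Um116 and 18S-Am159 wild type is above 0 and both mutants are at -0.099 or below.

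The FBL mutants lowered sites of the region further than the knockdown with empty vector had. FBLTri lowered 9 of the 23 sites and raised 0, where 20% of all sites were lower and 16.7% higher. FBLQua lowered 7 and raised 0, where 11.7% of all sites were lower and 7.5% higher (limma). The median change over the 23 sites was -0.027 with FBLTri and -0.028 with FBLQua, against -0.001 and 0.000 over all sites. Among the 71 sites of 28S FBLTri lowered 10 and raised 16, and FBLQua lowered 3 and raised 7. Library medians moved by -0.001 and -0.006 here, and with medians made equal FBLTri had 9 sites lower, and FBLQua had 7 lower and 1 higher. Both mutant comparisons share the empty-vector libraries, so their values stand side by side and are not independent of each other.

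At 18S-Am159 the score was 0.662 and 0.650 with FBLTri and 0.712 and 0.722 with FBLQua, below every other library of the study. The change from empty vector was -0.193 (SE 0.011, adjusted p = 6.98e-06) with FBLTri and -0.132 (SE 0.011, adjusted p = 0.000155 by limma) with FBLQua. Both calls were lost on a logit scale, that with FBLQua also in a fit of the compared groups alone. 18S-Um116 scored 0.688 and 0.701 with FBLTri and 0.729 and 0.756 with FBLQua, against 0.847 and 0.872 with empty vector. Its changes were -0.165 and -0.117. 18S-Am99 scored 0.691 and 0.676 with FBLTri and 0.731 and 0.744 with FBLQua, against 0.835 and 0.837, changes of -0.153 and -0.099. At these 3 sites, guided by SNORD45, SNORD42 and SNORD57, the 4 mutant libraries were the lowest of the 19. The same held at 18S-Am166, 18S-Cm462, 18S-Gm509, 18S-Am512, 18S-Am576, 18S-Gm644 and 18S-Am668, so it was not particular to them. Its share over all sites was not computed.

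The neighbouring sites 18S-Gm509 and 18S-Am512, guided by SNORD11 and SNORD70 from the NOP58 gene, were called lower with both mutants. 18S-Gm509 scored 0.994 to 1 in the 4 controls, 0.991, 0.971, 0.974 and 0.976 in FBL KD, 0.895 and 0.887 with FBLTri, and 0.858 and 0.923 with FBLQua. On knockdown its groups did not overlap but the change of -0.019 was not called, and it fell by 0.084 with either mutant (SE 0.017, adjusted p = 0.0053 and 0.00876 by limma). 18S-Am512 scored 0.955 and 0.944 with empty vector, 0.846 and 0.823 with FBLTri, and 0.806 and 0.855 with FBLQua. Its changes were -0.115 and -0.119, against -0.040 on knockdown. These 2 sites lie 3 positions apart and so share flanks. With the flank positions of other listed sites left out, no call of the mutants at either site was lost.

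18S-Am166 (SNORD44 in GAS5) changed by -0.097 and -0.050, and 18S-Am668 (SNORD36) by -0.071 and -0.048, with FBLTri and FBLQua. The FBLQua calls were lost under 5 of 14 alternatives at 18S-Am166, among them 3 omissions of a single library, and under 6 of 14 at 18S-Am668, among them the omission of any 1 of the 4 libraries. FBLTri also lowered 18S-Cm462 (-0.074, adjusted p = 0.00682) and 18S-Am576 (-0.027, adjusted p = 0.0391), the latter lost under 8 of 14 alternatives. Other sites that had fallen on knockdown showed no call with the mutants: 18S-Am590 changed by 0.030 (95% interval 0.004 to 0.055, adjusted p = 0.0738) and -0.003 (-0.029 to 0.023), 18S-Um428 by 0.014 and 0.047, and 18S-Gm644 by -0.023 and -0.034 with FBLTri and FBLQua. By base, the sites lowered by FBLTri were 6 of the 10 adenosines, 1 of the 3 cytidines, 1 of the 4 guanosines and 1 of the 5 uridines. The share lowered was 9 of 23 in the region and 20% over all sites. On a logit scale 2 sites were called with FBLTri, 18S-Um116 and 18S-Gm509, and 1 with FBLQua, 18S-Um116. 18S-Am159 and 18S-Am99 were not called with either mutant on that scale. In a fit of the compared groups alone FBLQua gave 0.

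Against wild-type FBL, FBLTri had 14 of the 23 sites lower and 0 higher, and FBLQua had 10 lower and 1 higher (limma). The shares among all sites were 62.5% lower in the case of FBLTri, and in that of FBLQua 59.2% lower and 0.833% higher. The changes were -0.285 and -0.223 at 18S-Am159, -0.204 and -0.156 at 18S-Um116, -0.188 and -0.134 at 18S-Am99, -0.141 and -0.145 at 18S-Am512, and -0.101 with either mutant at 18S-Gm509. At 18S-Am590, not called with either mutant against empty vector, FBLQua was lower than wild type by -0.061 (adjusted p = 0.00142), and at 18S-Gm644 the changes were -0.064 and -0.074. The site higher with FBLQua was 18S-Am27 (0.036, adjusted p = 0.0378), a call lost under 6 of 13 alternatives. Under equal library medians FBLTri had 4 sites lower and 10 higher, and FBLQua 3 lower and 13 higher. Of the 5 sites just named with both mutants, 18S-Am159, 18S-Um116 and 18S-Am512 were called lower on that scale too, for either mutant.

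18S-Cm174 was lower with the mutants than with wild-type FBL in every library, without a call. It scored 0.699 and 0.718 with wild-type FBL, 0.415 and 0.166 with FBLTri, and 0.232 and 0.367 with FBLQua, with no overlap between wild type and mutants. The changes from wild type were -0.418 (adjusted p = 0.123) and -0.409 (adjusted p = 0.129 by limma). The spread in this fit is shared with the control library that scored 0. With that library left out of the fit the same changes had an adjusted p of 0.00329 and 0.00362, and the rise of 0.320 with wild-type FBL over empty vector one of 0.0129.

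The mutants differed from each other at 3 sites of the region, each lower with FBLTri: 18S-Am159 (-0.061, adjusted p = 0.0167), 18S-Am99 (-0.054, adjusted p = 0.0342) and 18S-Am166 (-0.046, adjusted p = 0.0467 by limma). Among all sites 5% were lower and 3.33% higher. The count was 0 without any 1 of the 4 mutant libraries, and the mutants' names rest on titles that conflict with the column names.

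Loss of SNORD127, whose site lies beyond the region, left 0 of the 23 sites called, against 0.833% lower among all sites (limma). An unadjusted p under 0.05 was also found at 0 of the 23. The comparison set clones C1 and C34 and clone C1 with empty vector against the control clone and clone C1 with SNORD127. At 18S-Am512 and 18S-Gm644 the 3 libraries without SNORD127 lay above the other two, against 5% of all sites. Changes ran from -0.027 at position 186 to 0.028 at 18S-Gm436. At 18S-Am159 the 5 libraries scored 0.961 to 0.988, and at 18S-Am668 0.975 to 0.978. The widest intervals, -0.408 to 0.425 at most, came with 18S-Cm174, where the 5 libraries scored 0.770 to 0.893.

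Scores were also computed at the other positions of the region with the deposited formula. Of 642 positions that are not listed, 23 had a median of 0.8 or more over the 19 libraries and 6 of 0.9 or more, while the median over all 642 was 0.058. With flanks of 2 positions only 9 had a median of 0.8 or more. The 10 highest were positions 533 (0.984), 203 (0.975), 202 (0.969), the position before these (0.950), 46 (0.915), 545 (0.90), 183 (0.890), 575 (0.881), 616 (0.875) and 557 (0.874). Position 533 scored 0.967 to 1 in every library. A high score says that few fragments ended there compared with the neighbours, and no position in these data has a second measure of methylation. Of the 10, 183 and 575 lie within 6 nucleotides of a listed site, and with flanks of 2 positions their medians were 0.604 and 0.680. In that setting 8 of the 10 were again among the 10 highest.

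Positions 202 and 203 and the one before them divided the libraries. Position 203 scored 0.074 and 0.022 in control KD and 0.121 and 0.149 in FBL KD, and 0.964 to 1 in the 15 other libraries. Position 202 scored 0.200 to 0.340 in those 4 libraries and 0.942 to 0.982 in the others, and the position before scored 0.238 to 0.510 against 0.927 to 0.993. The 4 libraries and the 15 others did not overlap. The median that ranked these positions rests on the 15 libraries where they are high. How many other positions divide the libraries in this way was not computed. Control KD and FBL KD were both low without re-expression, and both were high with empty vector. The counts read for position 203 were 148 to 269 in the 4 libraries, although these were the shallowest, and 0 to 8 in the rest. The same 4 libraries had 2.67% to 5.35% of their counts in the region, against 3.94% to 6.72% in the 15 others. The part of depth or of library preparation in this difference was not tested.

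**Figure D5:**
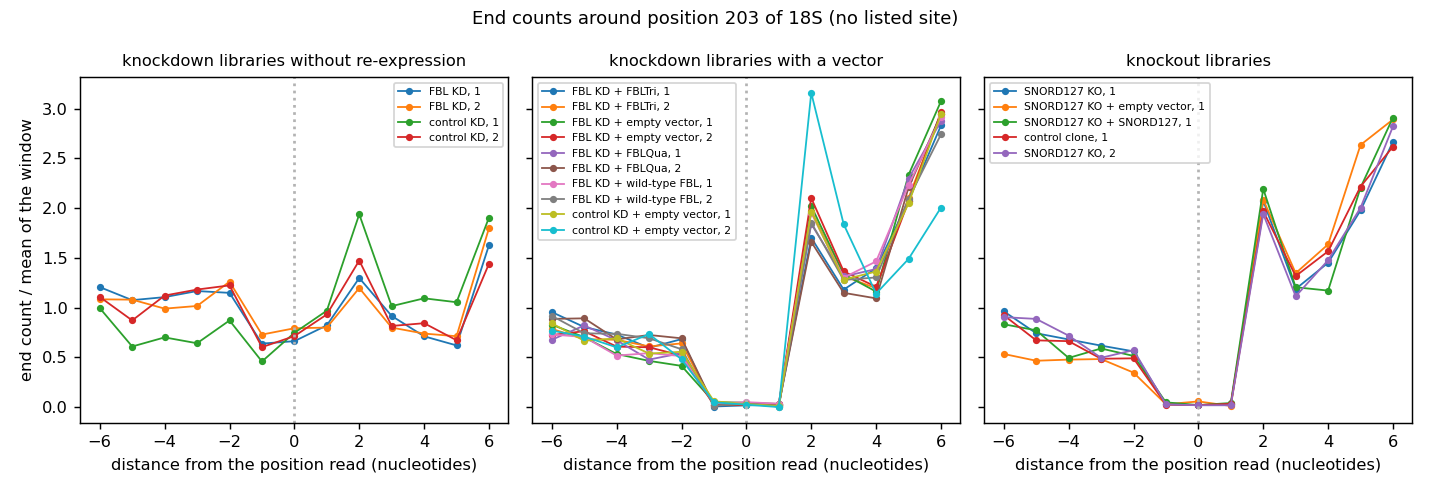
End counts divided by their mean over a window of 13 positions (vertical axis), by distance in nucleotides from position 203 of 18S (horizontal axis), in the 4 KD libraries without re-expression, the 10 KD libraries with a vector and the 5 knockout libraries. The 3 central positions are near 0 in the 15 libraries of the middle and right panels and are not in the left panel.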

How the data were processed

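Fragments of Kasumi-1 RNA, about 30 nucleotides long after hydrolysis of 100 ng at 95 °C for 12 min per the labels' protocols, had been sequenced and their ends counted at every rRNA position. The deposited table holds raw whole-number counts per position, and a second deposited table holds the authors' score C as a fraction from 0 to 1. The submitters' processing notes name cutadapt and Bowtie2, with version and reference not given in the sources used here. This score equals 1 minus the end count after a site divided by the mean of 2 weighted means of the 6 positions on either side (weights 1 falling to 0.5), with negative values set to 0. Recomputed from the counts it matched the deposited fraction in 2280 of 2280 values (tolerance 1e-09).

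Groups followed the sample titles, and the control clone rests on its title alone. The test of scores was limma's (version 3.58.1, R 4.3.3, 1 mean per group, variance trend, two-sided), in 14 KD libraries for the KD comparisons and 19 for SNORD127, with Benjamini-Hochberg adjustment over all 120 sites at 0.05. End counts were tested with edgeR 4.0.16 (quasi-likelihood, TMM) and DESeq2 1.42.0 over all positions that passed filterByExpr. The named sites are those called in a comparison, plus uncalled ones chosen after their values were seen. The members and lists were chosen with earlier results of these data known. Host genes came from a RefSeq table of GRCh38.p14, and bases from the site names. Alternatives were 2 flanking positions, flanks next to other sites left out, unset negatives, equal library medians, a logit scale, no variance trend, thinly covered sites left out, a replicate block, the compared groups alone, each library left out, and, chosen after seeing the data, a fit without the library with the spike in 28S. Replicate numbers were checked for pairing over 21 pairs of groups: correlations ran from -0.226 to 0.694 (median 0.159) and 12 exceeded 0.1. This does not settle whether the numbers pair the samples. The main fits treated them as unpaired, with the replicate block as an alternative. The scripts were tested on simulated data. No rRNA sequence was used here.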

Additional observations from a re-analysis of the deposited data

Results flagged for a closer look

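In 46 sets of 4 KD libraries (23 sites in control KD and in FBL KD) 2 held a library far from the other 3. Chance alone gives such a gap in about 1 set of 20, so 2 of 46 is near that share. Each set pools libraries with and without empty vector, so the share is only a rough guide. Both were replicate 2 of control KD with empty vector, the library with the spike in 28S. 18S-Cm174 scored 0 there, and 18S-Um627, the SNORD65 site, scored 0.895, the lowest of its 4 controls.

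The knockdown effect differed between the backgrounds by -0.115 at 18S-Um428 and by -0.070 at 18S-Cm462, tested as a difference of differences in limma and more negative with empty vector at both. The shFBL number in the column names changes with the background, and the 2 cannot be told apart.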

How the results depend on the processing

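Most calls held when the flanks of neighbouring sites were left out (90 of 90 calls kept) or the variance trend dropped (87 of 90), and 55 of 90 held on a logit scale. The first setting changes the score only at the 10 sites with another listed site within 6 nucleotides, so it hardly tests calls elsewhere. In a fit of the compared groups alone 62 of 90 calls were kept. Equal library medians turned the direction of 46 of the 90 calls, lost 17 more and kept 27. No other setting turned the direction of a call. The values that follow are from calls, and some uncalled sites, whose sign turned, whether or not they passed under equal medians. The list is not complete: 18S-Cm174 with empty vector, for example, went from -0.024 to 0.114 without a call. For FBL KD against control KD, where 20 sites were called, they were 0.069 at 18S-Am99, 0.040 at 18S-Um116, 0.081 at 18S-Am166, 0.096 at 18S-Um172, 0.030 at 18S-Um428, 0.085 at 18S-Gm436, 0.113 at 18S-Cm462, 0.099 at 18S-Gm509, 0.079 at 18S-Am512, 0.022 at 18S-Am590, 0.095 at 18S-Gm601, 0.067 at 18S-Gm644 and 0.074 at 18S-Am668. Without re-expression (18 called) they were 0.030 at 18S-Um116, 0.064 at 18S-Am166, 0.068 at 18S-Um428, 0.022 at 18S-Am590, and 0.047 at 18S-Gm644 and 18S-Am668. With empty vector (18 called) they were 0.064 at 18S-Am99, 0.051 at 18S-Um116, 0.003 at 18S-Am159, 0.098 at 18S-Am166 and 18S-Cm462, 0.077 at 18S-Gm436, 0.093 at 18S-Am512, 0.021 at 18S-Am590, 0.106 at 18S-Gm601, 0.086 at 18S-Gm644 and 0.101 at 18S-Am668. For wild-type FBL against empty vector (19 called) they were -0.061 at 18S-Am99, -0.056 at 18S-Um116 and 18S-Gm644, -0.005 at 18S-Am159, -0.012 at 18S-Um428, -0.038 at 18S-Am590 and -0.058 at 18S-Am668, and against control 0.003 at 18S-Am99. For FBLTri against wild type they were 0.071 at 18S-Um121, 0.027 at 18S-Um428, 0.031 at 18S-Cm462, 0.060 at 18S-Am576, 0.062 at 18S-Gm601 and 0.033 at 18S-Gm644, and for FBLQua 0.022 at 18S-Am166, 0.000 at 18S-Gm509, 0.075 at 18S-Am576, 0.040 at 18S-Am590, 0.027 at 18S-Gm644 and 0.015 at 18S-Am668. Of these values 12 did not pass the test: 18S-Um116 and 18S-Am590 without re-expression, 18S-Am159 and 18S-Am590 with empty vector, 18S-Am159 and 18S-Um428 for wild-type FBL against empty vector, 18S-Am99 for it against control, 18S-Um428 and 18S-Cm462 for FBLTri, and 18S-Am166, 18S-Gm509 and 18S-Am668 for FBLQua. This setting subtracts the shift of the library median, which was negative in each of these comparisons except wild-type FBL against empty vector, where it was 0.096. Between the control groups it gave 0 calls.

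On a logit scale the calls were 10 for FBL KD without re-expression, 1 for the difference between backgrounds, 6 between controls, 4 for wild-type FBL, 2 for FBLTri, 1 for FBLQua, 9 and 7 for FBLTri and FBLQua against wild type, and 0 between the mutants. Flanks of 2 positions gave 4 for the difference between backgrounds. The compared groups alone gave 1 for that difference, 0 between controls, 1 for wild-type FBL against control, 0 for FBLQua and 0 between the mutants. DESeq2 gave 2 positions for wild-type FBL. The cause of these shifts was not tested. A replicate block gave 11 calls for FBL KD, 1 for the difference between backgrounds and 1 between the mutants. Whether the numbers pair the samples is not known. No paired analysis was possible for SNORD127 because its groups share fewer than 2 numbers. Leaving out 1 library at a time gave 10 to 12 sites for FBL KD over both backgrounds, 5 to 8 without re-expression, 7 to 10 with empty vector, 1 to 3 for their difference, 0 to 4 between controls, 3 to 6 for wild-type FBL, 2 to 5 for it against control, 7 to 8 for FBLTri, 5 to 6 for FBLQua, 11 to 15 and 9 to 12 for them against wild type, 0 to 0 between the mutants, and 5 to 68 positions for end counts. Of single sites 18S-Cm174 changed by 0.388 with empty vector without replicate 1 of its control, and by -0.436 without replicate 2. At 18S-Am27 in FBL KD flanking counts of 24.43 limit the score to a half-width of 0.1228.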
